A study of Saccharomyces cerevisiae with 12 samples.

Results

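The genes described here are 272 budding yeast reading frames that lie near the ends of the chromosomes. Several named gene families were left out by symbol. Still in the set are 36 frames of Y', a repeated subtelomeric element, and some near-identical gene copies. They were chosen by name: on each of the 32 chromosome arms, the reading frames with the 10 highest numbers in their systematic names were taken from the array, since these numbers grow from the centromere towards the telomere. Of the 335 frames found in this way, 63 were left out because their symbols belong to families such as PAU, COS, FLO, HXT or PHO, or to a short list of single genes. The remaining 272 are part of 6224 genes on the array, with 5 to 11 of them on each arm. An annotation of the present assembly, R64, held 230 of them, and all 230 were among the 15 outermost genes of their arm there, 215 of them among the 10 outermost. The other 42 frames were not matched and keep the names in the files. No member was chosen by its measured values.

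Subtelomeres are the stretches of chromosome next to the telomere repeats. In yeast, Sir proteins spread inwards from the telomeres along histones that have lost their acetyl groups, and genes placed there can be silenced, which is called telomere position effect. Many yeast telomeres also carry a Y' element, a repeated block with reading frames for a helicase-like protein, and further in lie single genes and small families for the use of unusual sugars, nitrogen and sulphur sources. Acetylation of histone H3 on lysine 9 is a mark of active promoters.

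RNA was measured in the Saccharomyces cerevisiae strain L40, a two-hybrid reporter strain, with 4 one-colour arrays in each of 3 groups. The first group stably expressed scFv-58F, an intrabody (an antibody fragment made inside the cell) against H3 acetylated on K9. The second stably expressed scFv-112A, an intrabody against acetylated HIV-1 integrase that serves as the control, and the third was wild type L40 without an intrabody. The intrabody strains were grown without leucine before a last overnight culture in rich YPD medium, while the wild type was in YPD throughout, so that the comparisons with wild type differ in earlier medium, in transformation and in the intrabody. The labels give neither the promoter of the intrabodies nor whether the 4 replicates were separate cultures, and p-values then measure only the spread between these samples.

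Levels are given as log2 of the processed spot intensity minus the 75th percentile of the array, and differences as log2 of 1 group mean over the other with the SE of the fit, n = 4 arrays per group. A call means an adjusted p (limma, Benjamini-Hochberg) under 0.05, with the adjustment over all 5826 genes tested. LEU2, the marker that the leucine-free medium selects for, had a mean level of 6.15 ± 0.09 (SD) with scFv-58F, 5.88 ± 0.17 with scFv-112A and 1.52 ± 0.07 without an intrabody, which is 24.7-fold and 20.5-fold above wild type. Per array, 87.0% to 94.7% of gene spots and 72.6% to 89.7% of the spots of the subtelomeric frames were above background. The 75th percentile of the signal was 4739 to 6047 on 11 arrays and 9362 on wild type replicate 1. Each slide and scan held 1 group, so slide and group cannot be told apart.

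Of the 272 frames, 237 were tested, and 35 were above background on too few arrays. The frames were dimmer than the average probe, with a median level of -2.65 against -1.65 over all genes, and 71.3% of them were above background on all 12 arrays against 86.9% of all genes. For 16 frames, 0 of 12 arrays gave a signal above background. No tested frame was above background in 1 group only.

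Compared with 112A, the intrabody control, the strain expressing scFv-58F had more subtelomeric frames at a lower level than at a higher one. Among the 237 tested frames, 60 were called lower and 23 higher, 83 in all, while the background over all genes was 32.0% called, 17.9% lower and 14.1% higher. The share of the frames called lower was thus 25.3% and that called higher 9.70%. The median difference of the frames was -0.07, with quartiles of -0.23 and 0.06, and that of all genes -0.02; with quantile scaling the median of the frames was 0. Changes of at least 2-fold were few, with 4 frames lower and 1 higher, against 0.463% and 0.0687% of all genes (0.532% together). The arrays of the groups did not overlap for 86 frames, 36.3%, beside 34.5% of all genes.

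Against wild type, 112A had more frames at a higher level than at a lower one. Of the 237 frames, 85 were called higher and 38 lower, 123 in all, or 35.9% and 16% of them, with backgrounds of 22.8% higher, 25.5% lower and 48.3% called. At least 2-fold higher were 3 frames and at least 2-fold lower 0, against 0.704% of all genes past that size (0.429% higher and 0.275% lower). The median difference was 0.14 for the frames and -0.01 for all genes. For 58F against wild type, 77 frames were called higher and 63 lower, 140 in all, or 32.5% and 26.6% of them, near the backgrounds of 29.7% and 32.2% and of 61.9% called. The median was 0.06 against -0.01. At least 2-fold changes were 5 higher and 4 lower, against 0.961% and 2.59% of all genes, 3.55% together. Of the 5 higher frames, YGL262W and YKL223W.1 were above background on 0 wild type arrays. They entered the test only through the intrabody groups, where they are high. YGL262W is also among the 3 frames at least 2-fold higher in 112A. Both comparisons share the wild type arrays. Higher calls in 112A were more frequent than among other genes in each of 4 ranges of level. Among frames at a level above 0, 30.9% were called higher against 18.6% of other genes, and among frames below -4, 33.9% against 15.6%.

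**Figure D1:**
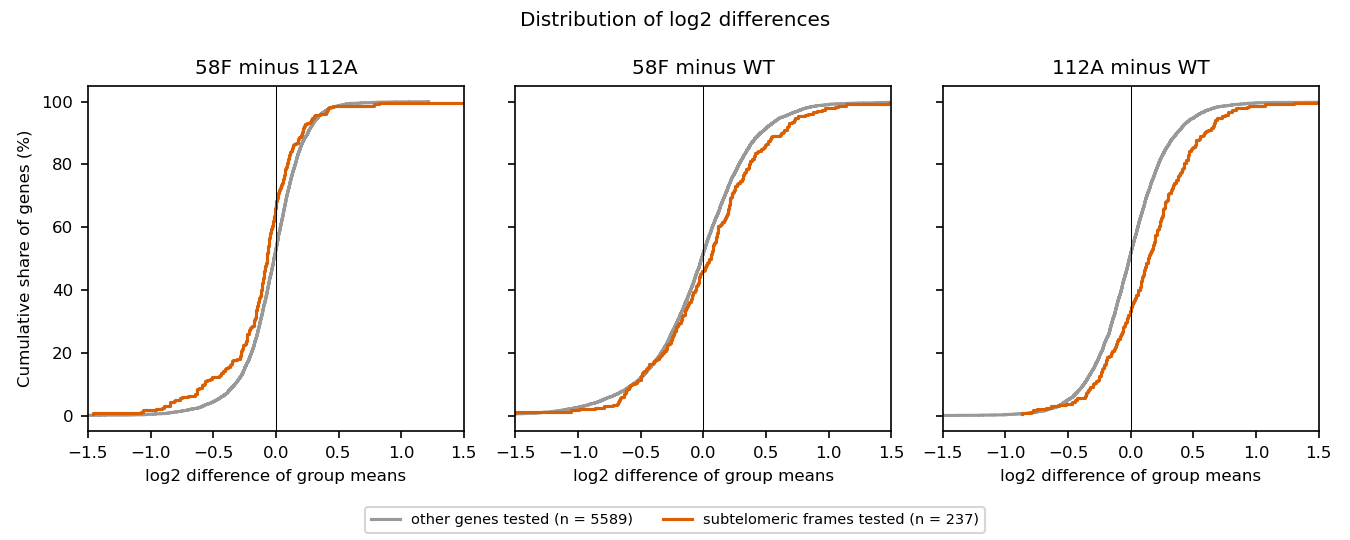
Cumulative share of genes (vertical axis, percent) at or below each log2 difference of group means (horizontal axis), for the 237 subtelomeric frames tested and the other genes tested, in the 3 comparisons. The curve of the frames lies to the left of the other genes for 58F minus 112A (median -0.07) and to the right for 112A minus WT (median 0.14).

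The position on the arm was described in 3 ranges, counting place 1 as the highest number on the arm. At places 1 to 3, 112A exceeded wild type in 35 of 68 tested frames and was lower in 2, with a median of 0.25. At places 4 to 6 the counts were 22 higher and 10 lower of 70, and at places 7 to 10 they were 28 and 26 of 99, with medians of 0.14 and 0.08. The higher calls thus made up 51.5%, 31.4% and 28.3% of the frames from the outermost range inwards, and the lower calls 2.94%, 14.3% and 26.3%, beside 22.8% and 25.5% of all genes. The inner range was near those shares. For 58F against 112A the outermost range had 1 frame called higher and 18 lower, the middle range 5 and 16, and the inner range 17 and 26. Lower calls were 26.5%, 22.9% and 26.3% of the frames and higher calls 1.47%, 7.14% and 17.2%, beside 17.9% and 14.1% of all genes. For 58F against wild type the counts were 22 higher and 10 lower, 22 and 22, and 33 and 31. Higher calls, at 31.4% to 33.3%, were near the 29.7% of all genes in each range, and lower calls were 14.7% at places 1 to 3 beside 32.2%.

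The outermost range holds many Y' frames, which share sequence. Without the frames on the Y' list, 38 tested frames remained at places 1 to 3. YEL076C-A, which lies among listed Y' frames on the left arm of chromosome V, was not on the list and stayed in. In 112A against wild type 17 of the 38 were called higher, YEL076C-A with them, and 1 lower, with a median of 0.28. These were 44.7% and 2.63%, beside 22.8% and 25.5% of all genes. The higher calls include YGL262W and YKL223W.1, which were above background on 0 wild type arrays. In 58F against 112A, 16 of these 38 were called lower and 1, YER188W, higher. The shares were 42.1% and 2.63%, beside 17.9% and 14.1% of all genes. The lower calls include near-identical pairs, ERR1 with ERR2 and VBA3 with VBA5. Their probes may share signal, so these calls are not independent of each other. VBA3 and VBA5 were also among the 17 called higher in 112A against wild type. In 58F against wild type 10 of the 38 were called higher and 9 lower, or 26.3% and 23.7% beside 29.7% and 32.2%. With the Y' frames included, the 35 higher calls of 112A against wild type fell to 22 without 112A replicate 1 or 112A replicate 2. The 22 higher calls of 58F against wild type in the same range fell to 14 without 58F replicate 1 and rose to 35 with quantile scaling.

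Every arm had at least 1 call in each comparison. Over all genes 32.0% to 61.9% were called, so a call on most arms says little about these frames. Such counts were not made for groups of other genes. In 112A against wild type, 29 of 32 arms had at least 1 frame called higher and 22 at least 1 called lower, and the median over the frames of an arm was above 0 on 26 arms. In 58F against 112A, 27 arms had a frame called lower and 20 a frame called higher, and the arm median was above 0 on 6 arms. In 58F against wild type, where the shares of called frames were near those of all genes, 29 arms had a frame called higher. A frame called lower was on 26 arms there, and the arm median was above 0 on 16 arms. Arm medians reached from -0.12 to 0.68 for 112A against wild type and from -0.35 to 0.12 for 58F against 112A.

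**Figure D2:**
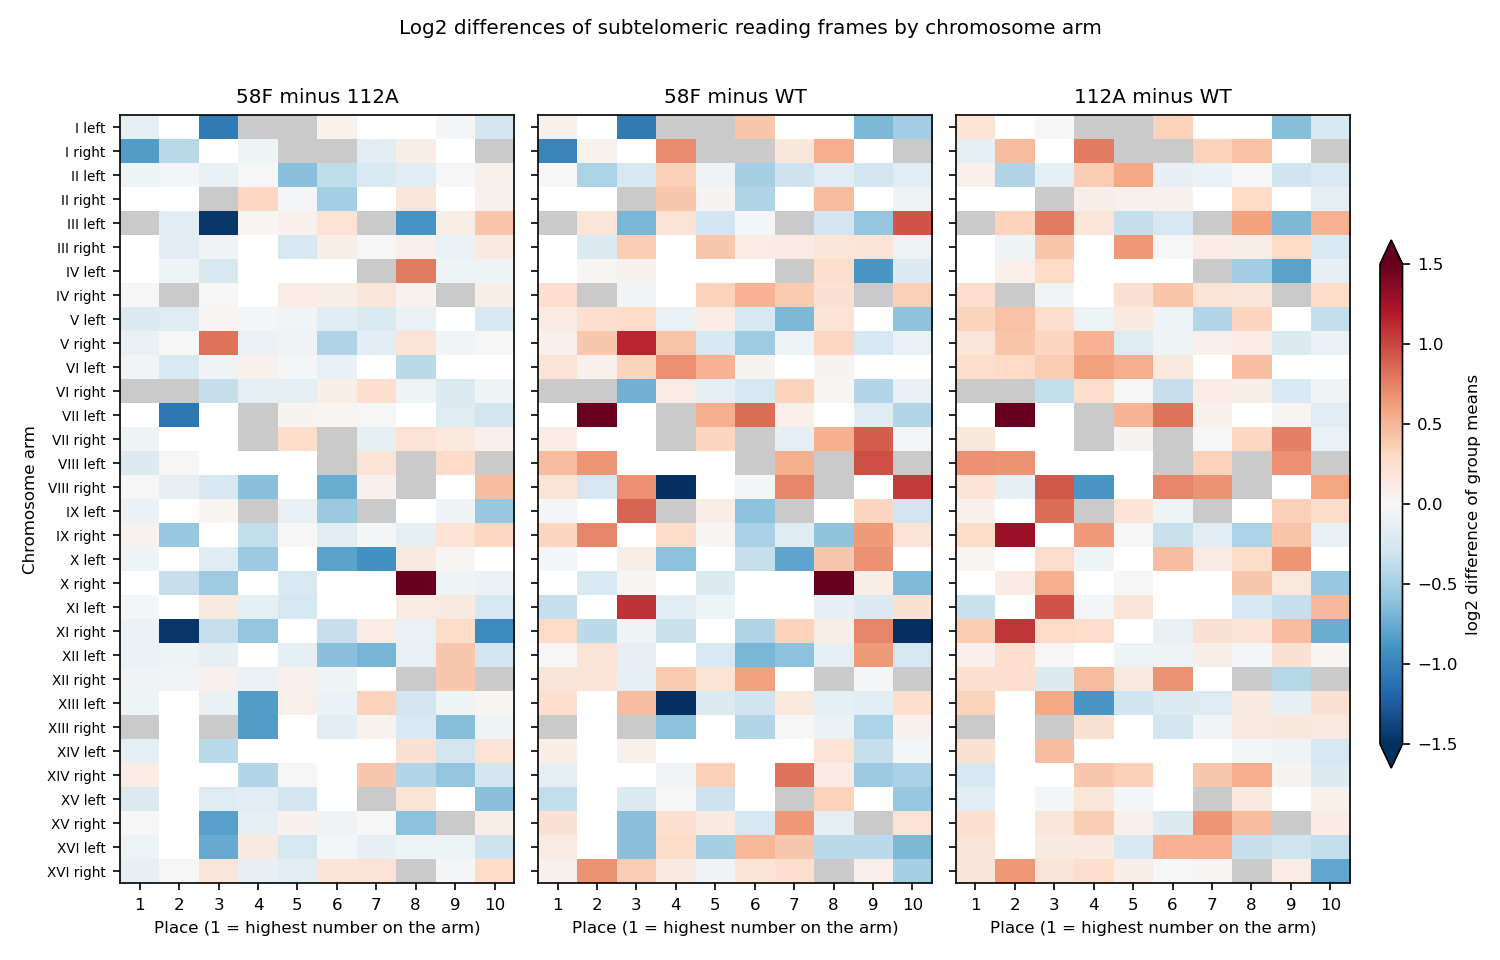
Log2 difference of group means (colour) for each chromosome arm (rows) and place on the arm (columns, 1 is the highest number), in the 3 comparisons. Grey cells were not tested, white cells hold no frame of the set, and frames that share a number are averaged. Most outer cells of 112A minus WT are above 0, and arm medians were above 0 on 26 of 32 arms.

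The Y' reading frames, which include the helicase-like YRF1 copies, had more higher than lower calls in both intrabody groups against wild type, and few calls between the intrabody groups. Of 35 tested, 22 were called higher and 1 lower in 112A against wild type (median 0.24), and 16 higher and 1 lower in 58F against wild type (median 0.20). The higher calls were 62.9% and 45.7% of the frames, beside 22.8% and 29.7% of all genes. The lower calls were 2.86% in each of these comparisons, beside 25.5% and 32.2% of all genes. In 58F against 112A, 2 were called lower and 0 higher (2 and 0 at an unadjusted p under 0.05), and the differences ran from -0.21 to 0.18. Between the intrabody groups the shares were 5.71% lower and 0% higher, beside 17.9% and 14.1% of all genes. Copies of the element are nearly identical, so each probe may read several of them and the calls are not independent of each other.

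The spread between arrays was large beside these differences. Set against the wild type mean of each frame, the median of the 35 frames was 0.30, 0.18, 0.13 and 0.18 on the 4 arrays of 58F. It was 0.29, 0.31, 0.08 and 0.25 on those of 112A, and -0.18, 0.14, -0.01 and 0.01 on those of wild type. Wild type replicate 2 therefore stood above 112A replicate 3 and 58F replicate 3, and the groups overlapped in this median. The arrays did not overlap for 7 frames (20%) in 112A against wild type and for 10 (28.6%) in 58F against wild type, a smaller share than the 39.8% and 57.9% of all genes. Without 112A replicate 2 the 22 calls became 10, and without 58F replicate 1 the 16 became 7, while quantile scaling gave 27 in place of 16.

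**Figure D3:**
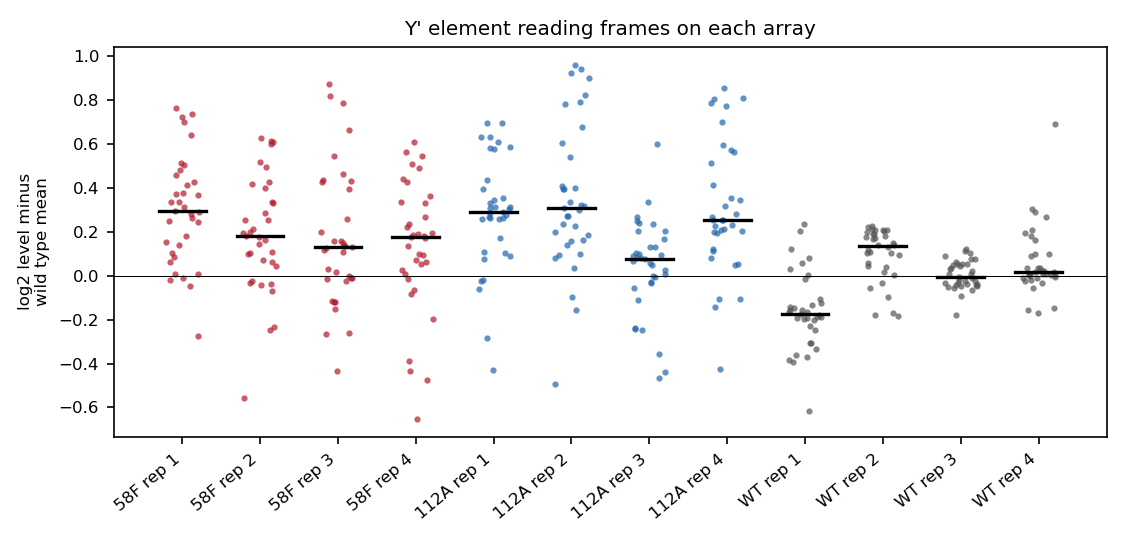
Log2 level of each of the 35 tested Y' frames minus its mean over the wild type arrays (vertical axis), on each of the 12 arrays (horizontal axis); a point is a frame and a line the median of the array. The medians of the intrabody arrays lie between 0.08 and 0.31, those of wild type between -0.18 and 0.14.

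YHL050C, a Y' frame at the end of the left arm of chromosome VIII, was the clearest of them. Its level was -1.0, -1.02, -1.08 and -1.03 on the 58F arrays, -0.82, -0.83, -0.91 and -0.74 on the 112A arrays and -1.62, -1.47, -1.54 and -1.42 on the wild type arrays. All 3 groups were apart, with 112A highest and wild type lowest. The difference was 0.69 ± 0.05 for 112A against wild type (adjusted p = 3.42e-06), 0.48 ± 0.05 for 58F against wild type (adjusted p = 1.16e-05) and -0.21 ± 0.05 between the intrabody groups (adjusted p = 0.0119). The last call was lost with normexp background correction, at -0.12.

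The short Y' frames YHL049C, YLR462W, YPR203W and YFL065C had nearly the same pattern over the arrays. YHL049C was at -2.69, -2.84, -2.79 and -2.84 in 58F, at -2.82, -2.49, -3.20 and -2.60 in 112A and at -3.76, -3.33, -3.44 and -3.27 in wild type. Every intrabody array was above every wild type array, the nearest being 112A replicate 3. The 4 frames differed from wild type by 0.61 to 0.68 in 58F and by 0.62 to 0.67 in 112A, and the arrays of 112A and wild type overlapped for YPR203W and YFL065C. YEL077C, at the end of the left arm of chromosome V, had 3.97, 3.90, 3.95 and 3.96 in 58F, 4.18, 4.23, 4.07 and 4.14 in 112A and 3.65, 3.93, 3.89 and 3.83 in wild type. The 112A arrays were the highest, by 0.33 ± 0.06 over wild type (adjusted p = 0.00112). The call between the intrabody groups, -0.21 ± 0.06 (adjusted p = 0.0213), was lost with quantile and cyclic loess scaling.

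Of the Y' frames, 3 were below their wild type mean on all 8 intrabody arrays, namely YBL111C, YHR218W and YBL112C, and YBL112C was called. It was at 1.43, 1.14, 1.27 and 1.05 in 58F, at 1.27, 1.21, 1.26 and 1.28 in 112A and at 1.82, 1.75 and 1.53 in wild type, where replicate 2 gave no value and was dropped from the fit. Both intrabody groups lay below wild type, by -0.48 ± 0.09 (adjusted p = 0.00091) and -0.45 ± 0.09 (adjusted p = 0.00245).

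Among the metabolic enzymes, lower calls prevailed in 58F against 112A. Among the 36 with a test, 19 had a lower call and 2 a higher one, or 52.8% and 5.56% beside 17.9% and 14.1% of all genes, with a median of -0.26. Against wild type, 15 were lower and 7 higher in 58F (41.7% and 19.4%, median -0.16), and 7 were lower and 14 higher in 112A (19.4% and 38.9%, median 0.18). Over all genes 32.2% and 29.7% were lower and higher in 58F, and 25.5% and 22.8% in 112A. These lists were drawn up with results of these arrays known, so their counts describe the members only.

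The enolase-related genes ERR1, ERR2 and ERR3, on the ends of 3 different chromosomes, were lower in 58F than in both other groups. ERR3 had levels of -2.94, -3.11, -2.83 and -2.84 in 58F, -2.03, -2.25, -1.82 and -2.24 in 112A and -2.46, -2.22, -2.25 and -2.35 in wild type. The 58F arrays were all lowest, and the other groups overlapped. The difference from 112A was -0.84 ± 0.10 (adjusted p = 0.0002) and that from wild type -0.61 ± 0.10 (adjusted p = 0.000234). ERR1 and ERR2 differed from 112A by -0.82 and -0.76 and from wild type by -0.63 each, and neither was called in 112A against wild type. The 3 genes are near-identical, and their probes may read each other's RNA.

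REE1, whose product takes part in regulating the glycolytic enolase Eno1, lies on the left arm of chromosome X. It was at 3.29, 3.00, 2.89 and 3.63 in 58F, at 4.23, 3.86, 4.46 and 3.91 in 112A and at 4.19, 3.91, 3.93 and 3.94 in wild type. The 58F arrays were below all others, with a fall of 0.91 against 112A (log2 -0.91 ± 0.16, adjusted p = 0.00186) and of 0.79 against wild type (-0.79 ± 0.16, adjusted p = 0.0013). YJL218W, next to it, and IMA4, further out, were also called lower in 58F against 112A, by 0.55 or more (log2). The probe of IMA4 may share signal with its copies IMA2 and IMA3 on other chromosomes. IMA5, on the other side of REE1, was not called (0.14 ± 0.08, adjusted p = 0.179).

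PCK1, the phosphoenolpyruvate carboxykinase of gluconeogenesis, and IMD2, an IMP dehydrogenase of guanine nucleotide synthesis, were graded over the 3 groups. PCK1 was at 1.47, 1.37, 1.77 and 1.83 in 58F, 2.58, 2.29, 3.01 and 2.39 in 112A and 3.73, 3.18, 3.25 and 3.1 in wild type. The groups did not overlap. The differences were -0.96 ± 0.17 for 58F against 112A (adjusted p = 0.00204), -1.71 ± 0.17 for 58F against wild type (adjusted p = 7.41e-06) and -0.75 ± 0.17 for 112A against wild type (adjusted p = 0.00453). IMD2 had the same order, with -5.72, -5.60, -6.01 and -5.83 in 58F, -5.12, -4.82, -5.36 and -5.35 in 112A and -4.39, -4.20, -4.31 and -4.28 in wild type. It was above background on 2, 3 and 4 arrays of these groups, and its difference of -1.5 ± 0.12 between 58F and wild type (adjusted p = 1.15e-06) was -0.87 with normexp background correction; that of -0.87 ± 0.12 between 112A and wild type (adjusted p = 0.000142) was -0.42. YAR075W.1, part of a nonfunctional gene similar to IMP dehydrogenase, was lower in 58F, and was likewise above background on 2, 3 and 4 arrays. The difference was -0.84 ± 0.16 against 112A (adjusted p = 0.00215) and -0.99 ± 0.16 against wild type (adjusted p = 0.000185, and -0.46 with normexp). Whether its probe also reads the RNA of IMD2 was not tested.

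CHA1, the serine and threonine deaminase, differed in the order of the groups. Its levels were -2.78, -2.61, -2.52 and -2.99 in 58F, -1.60, -1.57, -2.13 and -2.04 in 112A and -2.28, -2.47, -2.54 and -2.45 in wild type. The 112A arrays were highest, and 58F and wild type overlapped. It was lower in 58F than in 112A by -0.89 ± 0.14 (adjusted p = 0.000792) and higher in 112A than in wild type by 0.60 ± 0.14 (adjusted p = 0.00385). MHT1, which makes methionine from S-methylmethionine, was lower in 58F by -0.63 ± 0.09 against 112A (adjusted p = 0.000531) and -0.69 ± 0.09 against wild type (adjusted p = 4.86e-05).

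**Figure D4:**
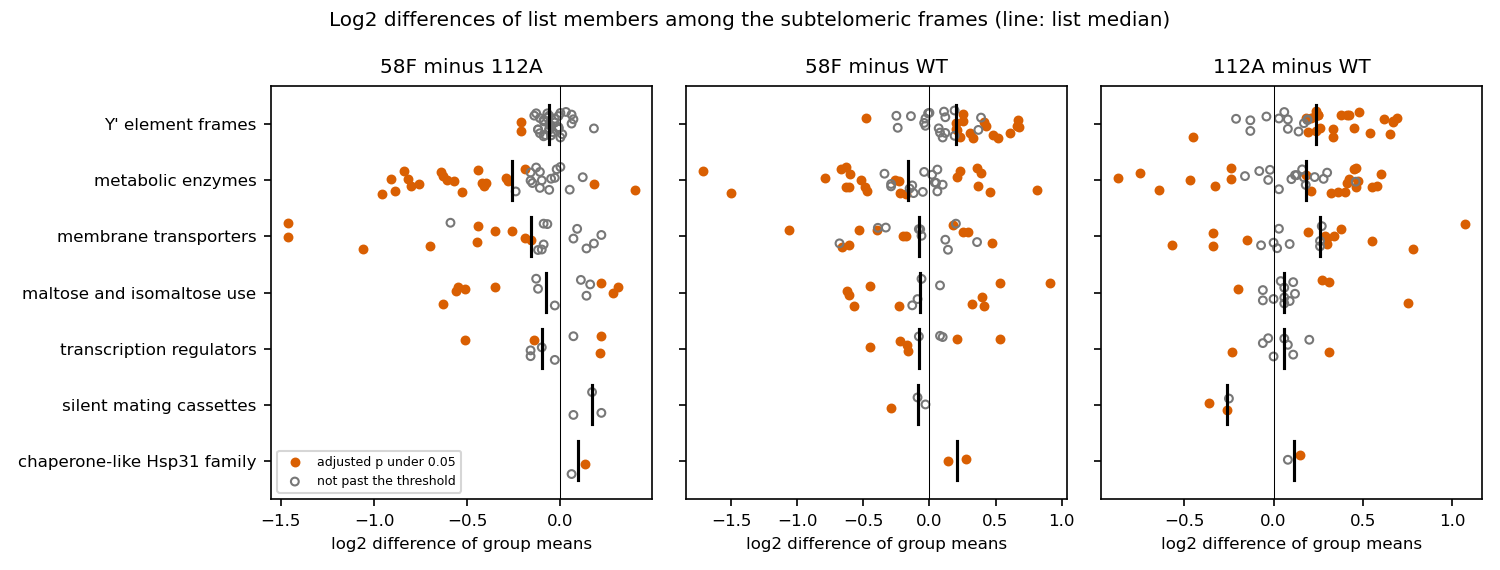
Log2 difference of group means (horizontal axis) for the members of each gene list (rows) in the 3 comparisons. Filled points passed the adjusted p threshold of 0.05, open points did not, and the line is the median of the list. In 58F minus 112A the enzymes and transporters reach far below 0 (medians -0.26 and -0.16) and the Y' frames lie close to 0.

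Among 21 tested membrane transporters, 10 were called lower and 0 higher in 58F against 112A (10 and 1 at an unadjusted p under 0.05), with a median of -0.16. The lower calls were 47.6% of the list, beside 17.9% of all genes. Against wild type, 58F had 4 higher and 7 lower, the lower share of 33.3% being near the 32.2% of all genes. In 112A there were 9 higher and 4 lower, or 42.9% and 19.0% beside 22.8% and 25.5%. The 10 lower calls became 7 without 112A replicate 1 or replicate 4 and 5 with cyclic loess scaling, and the 9 higher calls became 5 without 112A replicate 1, 112A replicate 4 or wild type replicate 2.

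SEO1, a putative permease of the allantoate transporter family on the left arm of chromosome I, was lower in 58F than in both other groups. Its level was -2.28, -2.40, -1.84 and -2.15 in 58F, -0.97, -1.24, -0.90 and -1.33 in 112A and -0.75, -1.33, -1.22 and -1.14 in wild type. The 58F arrays were all lowest and the other groups overlapped. It was lower by -1.06 ± 0.15 against 112A (adjusted p = 0.000494) and by -1.06 ± 0.15 against wild type (adjusted p = 8.08e-05). MMP1, the S-methylmethionine permease next to MHT1, was at -0.18, -0.34, -0.20 and -0.11 in 58F, 0.50, 0.33, 0.73 and 0.40 in 112A and 0.56, 0.38, 0.34 and 0.34 in wild type. Here too 58F was below both groups, by -0.70 ± 0.09 (adjusted p = 0.000241) and -0.61 ± 0.09 (adjusted p = 8.02e-05). PUG1, which takes up protoporphyrin, was lower in 58F by -0.45 ± 0.08 against 112A and -0.53 ± 0.08 against wild type.

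VBA3 and VBA5, near-identical relatives of vacuolar amino acid permeases, were dim and lower in 58F than in 112A. VBA5 was at -6.62, -6.79, -7.61 and -7.80 in 58F, -5.50, -5.97, -5.75 and -5.75 in 112A and -6.23, -6.31, -7.26 and -7.44 in wild type, and was above background on 2 arrays of each group. The 112A arrays were all highest. Both genes differed by -1.46 between 58F and 112A, with adjusted p of 0.00259 for VBA3 and 0.00495 for VBA5. VBA3 was above background on 2 arrays of 58F as well, so the size of these differences rests partly on signals near background. With normexp background correction both were -0.72, and after cyclic loess scaling the call of VBA5 was lost.

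Genes for the use of maltose and isomaltose had calls in both directions. Of the 14 with a test, 3 had a higher and 5 a lower call in 58F against 112A, 5 higher and 5 lower in 58F against wild type, and 3 higher and 1 lower in 112A against wild type. In 58F against wild type each direction held 35.7% of them, near the 29.7% and 32.2% of all genes. In 58F against 112A the shares were 21.4% higher and 35.7% lower, beside 14.1% and 17.9%. In 112A against wild type they were 21.4% and 7.14%, beside 22.8% and 25.5%. The isomaltases IMA2, IMA3 and IMA4 fell in 58F. IMA2 was at 0.34, 0.47, 0.42 and 0.45 in 58F, 1.13, 0.75, 1.10 and 1.21 in 112A and 0.87, 1.13, 1.00 and 0.95 in wild type. The 58F arrays were all lowest, while 112A and wild type overlapped. The 3 copies, whose probes may share signal, differed by -0.63, -0.56 and -0.55 from 112A and by -0.57, -0.62 and -0.61 from wild type.

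IMA1 and IMA5, isomaltases that differ more in sequence from these copies, were higher in both intrabody groups than in wild type. IMA1 was at -2.49, -2.56, -2.29 and -2.62 in 58F, -2.78, -2.33, -2.77 and -2.71 in 112A and -3.78, -3.39, -3.34 and -3.09 in wild type. Wild type was below all intrabody arrays, which overlapped with each other. It was higher by 0.91 ± 0.14 in 58F (adjusted p = 0.000165) and 0.75 ± 0.14 in 112A (adjusted p = 0.0012), and IMA5 by 0.41 and 0.27. The maltases MAL12 and MAL32, a near-identical pair, were higher in 58F than in 112A by 0.28 and 0.31, and than in wild type by 0.32 and 0.40. MAL13, a maltose activator of the MAL1 locus, was at -1.82, -1.75, -1.82 and -1.85 in 58F, -2.10, -1.98, -2.15 and -1.89 in 112A and -2.33, -2.34, -2.36 and -2.33 in wild type. The groups did not overlap, with 58F 0.22 ± 0.05 above 112A (adjusted p = 0.00961) and 0.53 ± 0.05 above wild type (adjusted p = 7.67e-06). MAL33, the activator of the MAL3 locus, was lower in 58F by -0.51 ± 0.14 against 112A (adjusted p = 0.0173), and its arrays in 58F and wild type overlapped.

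**Figure D5:**
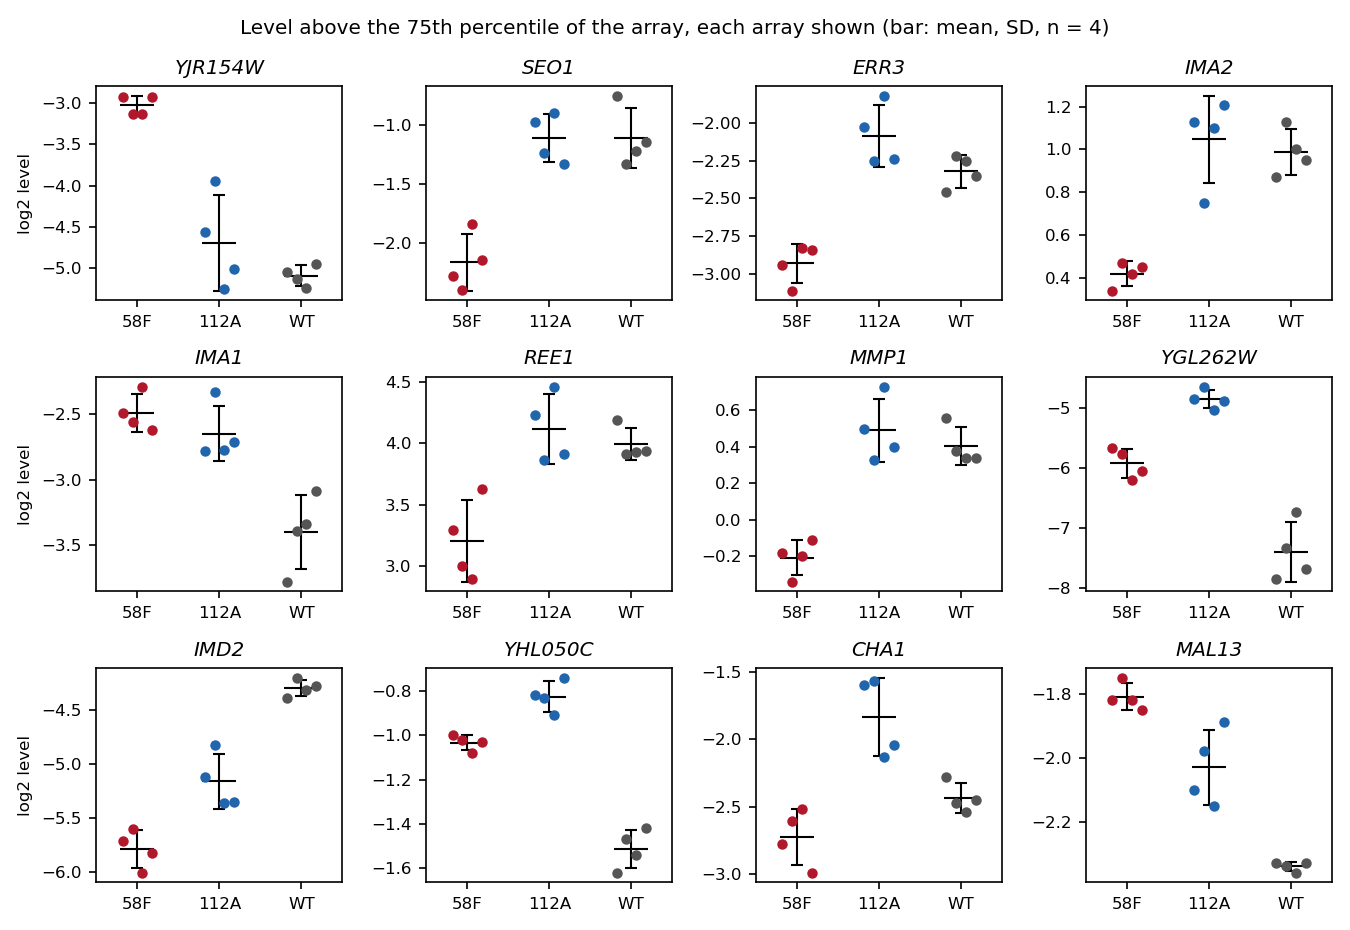
Log2 level, relative to the 75th percentile of the array, of 12 subtelomeric genes on each of the 12 arrays; each panel has its own axis, points are arrays, and bars give the mean and SD (n = 4). SEO1, ERR3, IMA2, REE1 and MMP1 are lowest on the 58F arrays, YJR154W is highest there, and the arrays of all 3 groups are apart for YHL050C, IMD2, MAL13 and YGL262W.

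YJR154W, an uncharacterised frame on the right arm of chromosome X, was the only frame at least 2-fold higher in 58F than in 112A. It was at -2.93, -3.13, -3.13 and -2.92 in 58F, -4.57, -3.94, -5.26 and -5.02 in 112A and -5.05, -5.14, -5.24 and -4.95 in wild type. The 58F arrays stood above all others, and 112A, above background on 3 of 4 arrays, overlapped with wild type. The difference was 1.67 ± 0.22 against 112A (adjusted p = 0.000314) and 2.07 ± 0.22 against wild type (adjusted p = 9.38e-06). The smaller difference of 0.40 between 112A and wild type was not called, and was called at 0.58 without 112A replicate 3.

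YGL262W, an uncharacterised frame near the left end of chromosome VII, was high in 112A. Its levels were -5.66, -5.77, -6.20 and -6.05 in 58F, -4.84, -4.64, -5.02 and -4.87 in 112A and -7.85, -7.33, -6.73 and -7.68 in wild type. It was above background on 2 arrays of 58F, 3 of 112A and 0 of wild type, and so entered the test through the groups where it is high. Its folds over wild type were taken against the higher of the probe's own signal and the lowest signal of any probe above background. Taken so, the 112A mean was 5.26-fold higher and the 58F mean 2.5-fold higher. These folds are approximate. The probe was not above background on part of the intrabody arrays either, so its own limit of detection can lie higher. The 3 groups did not overlap, and 58F was below 112A by -1.08 ± 0.21 (adjusted p = 0.00272; -0.71 with normexp). YIR042C had its highest mean in 112A, with -4.81, -4.46, -5.27 and -4.79, against -5.37, -5.21, -5.41 and -5.63 in 58F and -6.22, -5.99, -6.22 and -6.13 in wild type. It exceeded wild type by 1.30 ± 0.14 in 112A (adjusted p = 3.76e-05) and by 0.73 ± 0.14 in 58F (adjusted p = 0.000871; 0.40 with normexp), and was above background on 4 arrays of 58F, 3 of 112A and 2 of wild type. The intrabody groups overlapped, and their call, -0.57 ± 0.14 (adjusted p = 0.0107), was lost after cyclic loess scaling, at -0.38.

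Several frames were higher in both intrabody groups than in wild type without a call between them. YGL258W-A was at -2.16, -2.21, -2.18 and -2.38 in 58F, -2.19, -2.19, -2.44 and -2.24 in 112A and -3.49, -2.84, -2.98 and -2.97 in wild type. Wild type was lowest on all 4 arrays, by 0.84 ± 0.12 against 58F (adjusted p = 9.4e-05) and 0.81 ± 0.12 against 112A (adjusted p = 0.000273). YAR068W differed from wild type by 0.71 and 0.78. YHL042W differed by 0.97 (0.57 with normexp) and 0.69, and was above background on 2 arrays each of 112A and wild type, and its call in 112A was lost after cyclic loess scaling. YHR210C and YER188W were higher in 58F than in wild type by 1.05 ± 0.12 (adjusted p = 1.51e-05) and 1.14 ± 0.20 (adjusted p = 0.000455). Unlike the frames above, both were called higher in 58F than in 112A, by 0.46 and 0.82, although the arrays of the intrabody groups overlapped. In 112A against wild type YHR210C was called higher, at 0.59, and YER188W, at 0.32, was not called (adjusted p = 0.211).

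Frames lower in both intrabody groups than in wild type were found among genes of known function. ERO1, the thiol oxidase that drives disulphide formation in the endoplasmic reticulum, was at -1.35, -1.28, -1.04 and -1.03 in 58F, -0.35, -0.35, -0.04 and -0.57 in 112A and 0.92, 0.29, 0.52 and 0.43 in wild type. The 3 groups did not overlap, with 58F lowest. The differences were -1.71 ± 0.14 for 58F against wild type (adjusted p = 1.53e-06), -0.87 ± 0.14 for 112A against wild type (adjusted p = 0.000477) and -0.84 ± 0.14 between the intrabody groups (adjusted p = 0.00128). DAL5, the allantoate permease, was lower by -0.66 in 58F and -0.57 in 112A, and BDH2, a relative of butanediol dehydrogenase, by -0.67 and -0.64, with no call between the intrabody groups for either. For BDH2 the difference between 58F and wild type was -0.37 with quantile scaling. DLD3, an enzyme that oxidises 2-hydroxyglutarate, differed by -0.67 and -0.44, and IRC7, a cysteine desulphhydrase, by -0.72 and -0.37, and both were also lower in 58F than in 112A.

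A few genes of housekeeping function were higher in 58F than in 112A by small amounts. GAB1, a subunit of the GPI transamidase, was at -2.84, -2.75, -2.85 and -2.89 in 58F, -3.23, -3.27, -3.32 and -3.12 in 112A and -2.65, -2.84, -2.88 and -2.85 in wild type. Here 112A was the group that stood apart, below 58F by 0.40 ± 0.06 (adjusted p = 0.00069) and below wild type (-0.43 ± 0.06, adjusted p = 0.000177; -0.27 with normexp). RSC9, a subunit of the RSC chromatin remodelling complex, was higher in 58F by 0.35 ± 0.04 against 112A (adjusted p = 0.000224) and 0.16 ± 0.04 against wild type (adjusted p = 0.00555). MRC1, the mediator of the replication checkpoint, was higher in 58F than in wild type by 0.94 ± 0.10 (adjusted p = 1.19e-05; 0.56 with normexp), and its call against 112A, 0.42 ± 0.10 (adjusted p = 0.00925), was lost with normexp, at 0.01.

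The silent mating cassettes, the standard reporters of Sir-dependent silencing, had 0 calls of 3 tested between the intrabody groups, and 0 at an unadjusted p under 0.05. HMLALPHA1, which a strain of mating type a such as L40 carries in the silent cassette alone, was at -4.12, -3.99, -4.34 and -4.50 in 58F, -4.34, -4.53, -4.60 and -4.34 in 112A and -4.17, -4.02, -4.38 and -4.24 in wild type. All 3 groups overlapped, and the difference of 0.22 ± 0.11 between 58F and 112A was not called (adjusted p = 0.16), but was called at 0.33 with quantile and 0.30 with cyclic loess scaling. HMLALPHA2 was lower than wild type in 58F by -0.29 ± 0.08 (adjusted p = 0.00778) and in 112A by -0.36 ± 0.08 (adjusted p = 0.00327), and HMRA1 in 112A by -0.26 ± 0.08 (adjusted p = 0.0184). Both share sequence with the mating type locus or the other cassette. The difference of 0.17 in HMRA1 between 58F and 112A was called at 0.22 to 0.29 with normexp, quantile and cyclic loess. Among 9 transcription regulators with a test, 2 had a higher and 2 a lower call in 58F against 112A. These were 22.2% each, beside 14.1% and 17.9% of all genes. Of the Hsp31-like chaperones, HSP32 was higher in 58F than in 112A by 0.13 ± 0.04 (adjusted p = 0.028) and HSP33 was not called.

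Neighbouring frames with calls in the same direction were found on several arms, counted along the tested frames of the set. Frames left out or not tested can therefore lie between them. Such runs were not counted among other genes. Over all genes, 61.9% were called in 58F against wild type and 48.3% in 112A against wild type. On the left arm of chromosome VIII, YHL050C, YHL049C, DFP4 and YHL042W were all called higher in both intrabody groups against wild type. Of these, YHL050C and YHL049C are Y' frames, which share sequence. On the left arm of chromosome VII, YGL262W, YPS5 and YGL258W-A were called higher in both groups. On the left arm of chromosome XVI, SAM3 and SAM4, a permease and a methyltransferase that use S-adenosylmethionine, and PBI1 were called lower in both, by 0.39 to 0.67 in 58F and by 0.30 to 0.37 in 112A. On the right arm of chromosome IV, YDR541C, IRC4, FDC1 and PAD1 were called higher in 58F against wild type, by 0.23 to 0.52. FDC1 and PAD1 act together in the decarboxylation of phenylacrylic acids.

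Calls were also counted by annotation. Over all genes, 14.1% were called higher and 17.9% lower in 58F against 112A. The 139 tested frames with a gene symbol had 17 higher and 47 lower there (12.2% and 33.8%). In 112A against wild type they had 40 higher and 30 lower (28.8% and 21.6%). The 72 tested frames known only by a systematic name had 6 and 10 in the first comparison (8.33% and 13.9%). In the second they had 37 and 7, with a median of 0.29. In the second comparison these were 51.4% and 9.72%, beside 22.8% and 25.5% of all genes. Of these 72 frames, 24 are on the list of Y' frames, which share sequence. Without them, 21 of 48 were called higher and 6 lower in the second comparison (43.8% and 12.5%). The 26 tested frames not matched to the annotation had 0 and 3 in the first comparison, or 0% and 11.5%. At an unadjusted p under 0.05 these first counts were 0 and 4. In the second comparison the unmatched frames had 8 and 1 (30.8% and 3.85%). No test of these differences was made, since the frames were chosen with results of these arrays known.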

How the data were processed

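The scanner files were written by Feature Extraction 10.7.3.1. They hold a processed Cy3 intensity, background-subtracted and detrended within the array per the file headers, which the authors deposited unscaled between arrays. The authors also deposited log2 values for 5297 probes, with the 75th percentile at 12.8 on each array, which cover 183 of the frames and served as an alternative.

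Here the log2 of the processed intensity was taken, each array's 75th percentile subtracted, outlier spots dropped and the 2 spots of a probe averaged. Of several probes to a gene, the one with the highest mean was kept. Genes above background on at least 4 of 12 arrays were tested with limma 3.58.1 in R 4.3.3 (lmFit, eBayes, 2-sided, all 12 arrays in 1 fit, no covariate), with Benjamini-Hochberg adjustment over 5826 genes. The fitting script was tested on simulated data. Background values for normexp came from median pixel intensities, deposited in the same files, in place of mean ones.

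Names were matched to assembly R64 (5748 of 6224 genes); coordinates are left out because the build in the files is a different one, and probe and protein sequences were not used here. Near-identical families were taken from a list written by hand. The rule for named frames took from each comparison the 10 that rose most and the 10 that fell most (called, groups apart), the 4 called frames that changed most in each list, all silent cassette genes, and near-identical copies; the text names part of these. YBL111C, YHR218W, YJL218W, YEL076C-A, DFP4, YPS5, SAM3, SAM4, YDR541C, IRC4, FDC1 and PAD1 were named after their values were seen. The frames, lists and rules were chosen with earlier results of these data known. Replicate correlations within groups were 0.993 to 0.999, and no pair of arrays was identical. Alternatives were the background correction, scaling, filter, source of values, number of frames per arm, replicate block and leaving out each array. The number of arrays limits the precision.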

Additional observations from a re-analysis of the deposited data

Results flagged for a closer look

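In 201 groups of 4 arrays, 10 levels of named frames stood farther from the other 3 arrays of their group than Dixon's 95% critical value allows. Chance flags about 1 in 20 groups. The maltose activator MAL33 was at -0.36 on 58F replicate 4 (others -0.77 to -0.75) and at 0.14 on 112A replicate 3 (others -0.26 to -0.21). On 112A replicate 3 the permease MAL31 was at 2.06 (others 1.77 to 1.81) and DLD3 at 2.38 (others 2.27). YER188W was at -2.42 on 58F replicate 4 (others -1.73 to -1.65), IMA1 at -2.33 on 112A replicate 2 (others -2.78 to -2.71) and DAL5 at -1.5 on 112A replicate 1 (others -1.59 to -1.58). On wild type replicate 1, the array with the highest 75th percentile of signal, REE1 was at 4.19 (others 3.91 to 3.94), GAB1 at -2.65 (others -2.88 to -2.84) and CSS3 at -1.31 (others -1.08 to -1.06). The part of array quality in these levels was not tested.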

How the results depend on the processing

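The counts of called frames kept within 1.5 times of their value under normexp, quantile and cyclic loess scaling, both other filters, the authors' values, the replicate block and every array left out; no tested direction of a named frame reversed. Counting only calls of at least 2-fold gave 1 higher and 4 lower in 58F against 112A, 5 and 4 in 58F against wild type, and 3 and 0 in 112A against wild type. With the 5 highest numbers per arm the counts were 4 and 27, 38 and 21, and 52 and 9. With 20 they were 72 and 113, 170 and 155, and 161 and 108. These settings count fewer or more frames, and the balance of higher and lower calls moved as well. The median of 58F against 112A was 0 with quantile scaling, and that of 112A against wild type 0.22 with 5 and 0.07 with 20 numbers per arm; the cause was not tested. Leaving out each array in turn gave 18 to 25 higher and 51 to 66 lower in 58F against 112A, 61 to 82 and 56 to 66 in 58F against wild type, and 64 to 90 and 34 to 40 in 112A against wild type, with medians of -0.12 to -0.06, 0.02 to 0.07 and 0.13 to 0.15. Same-numbered arrays deviated with correlations of -0.17 to 0.19, not all over 0.1, so the numbers were not taken to pair the samples. The lowest signal above background was nevertheless ordered alike in the 3 groups, from replicate 2 (12.7, 25.4 and 17.6 in 58F, 112A and wild type) to replicate 3 (50.4, 79.9 and 58). With the replicate block the counts were 21 and 57, 73 and 65, and 86 and 37. Alternatives for the lists and the places on the arm were added after seeing the data. The 17 higher calls of 112A against wild type at places 1 to 3 without the Y' frames became 9 when a probe had to be above background on all 12 arrays and 10 with the authors' values, where fewer frames are tested. Dim probes limit the precision, as 43 tested frames were above background on part of the arrays.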
